A study of Gallus gallus with 6 samples.

Results

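The addition of HOXB8 to cells in which ERK signalling was held active was examined by RNA-Seq, as the comparison of MEK1ca + HOXB8 with MEK1ca. It takes 4 of the 6 libraries analysed here, namely 2 of MEK1ca + HOXB8 and 2 of MEK1ca, chosen by the condition named in their labels. The 2 libraries of the control vector pCIG serve as a background on neither side of the comparison. They still entered the filter, the scaling and the shared estimate of spread in the fit. Trunk neural tubes of chicken embryos were electroporated on both sides, and cells that expressed GFP were sorted 18 h later. The paper's general methods place the electroporation around stage HH 11, and its figure legend for the RNA-Seq design names the stage after that. The MEK1ca + HOXB8 condition received 1 µg/µL of a vector for constitutively active MEK1 and 1 µg/µL of a vector for HOXB8. The MEK1ca condition received 1 µg/µL of the same MEK1 vector and 1 µg/µL of empty pCIG, and the pCIG condition received 2 µg/µL of empty pCIG. All conditions thus carried the pCIG backbone, which makes nuclear GFP, and MEK1ca was present on both sides of the comparison. Each library came from a pool of embryos and gives averages over the sorted cells, in which fewer cells of a type cannot be told apart from less RNA per cell. The labels call the MEK1ca and pCIG libraries a reanalysis and do not call the MEK1ca + HOXB8 libraries one, so that HOXB8 and any difference in when or how the libraries were made cannot be told apart.

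HOX proteins are homeodomain transcription factors. They are expressed in ordered domains along the body axis, bind short AT-rich DNA sites, often together with PBX and MEIS cofactors, and give neural tube cells their position from head to tail. MEK1 is the kinase that phosphorylates ERK, the last kinase of the cascade downstream of FGF and other growth factor receptors, and in the caudal neural tube this signal keeps cells in an immature, proliferating state. Neither the count table nor the RefSeq table at hand pairs the Ensembl identifiers with symbols (0 of 17108 identifiers matched), so genes are described below by identifier or position, expression level, chromosome and length, on galGal4 with the Ensembl 85 annotation. HOXB8 and MEK1 themselves, marker genes of neural tube and other cell types, and promoter motifs were for this reason not analysed here, and the labelled cell type and the expression of HOXB8 were not checked.

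Total counts were 90460770 and 84415529 in MEK1ca + HOXB8, 63637195 and 76997561 in MEK1ca, and 77004159 and 79064166 in pCIG. Replicates of a condition correlated across genes with r between 0.989 and 0.992. One MEK1ca library stands apart: in MEK1ca replicate 2, 99.4% of the counts between 1 and 10 were even, and in the other libraries this share lay between 51.8% and 57.0%. With the counts of that library halved, 1196 genes were called up and 1080 down, close to the counts below. Expression is given as counts per 1000000 counts (CPM), scaled by the TMM factors of edgeR, and a gene was called up or down at an adjusted p of 0.01 or less (edgeR quasi-likelihood test, Benjamini-Hochberg adjustment over 13582 genes).

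Of the 13582 genes tested, 1187 (8.74%) were higher and 1085 (7.99%) were lower in MEK1ca + HOXB8 than in MEK1ca, together 2272 (16.7%). Over all classes of abundance together, the rises were larger than the falls and concerned less abundant genes. The median log2 fold change was 1.30 among upregulated genes and -0.61 among downregulated genes, beside 0.017 over all genes tested. Among genes of like abundance in pCIG, rises and falls were closer in size, with medians of 3.17 and -3.07 under 1 CPM and of 0.46 and -0.47 at 100 to 1000 CPM. A log2 fold change of 2 or more was found for 368 upregulated genes, and one of -2 or less for 99 downregulated genes. The upregulated genes had a median of 10.5 CPM in MEK1ca + HOXB8, 4.14 CPM in MEK1ca and 4.86 CPM in pCIG. The downregulated genes had a median of 66.1 CPM in MEK1ca + HOXB8, 101.9 CPM in MEK1ca and 80.5 CPM in pCIG. The up and down counts depended on the libraries kept. Without MEK1ca + HOXB8 replicate 1, 535 genes were up and 613 down, and without MEK1ca replicate 1 the counts were 611 and 564. Without MEK1ca + HOXB8 replicate 2, 697 genes were up, and without MEK1ca replicate 2, 780. No gene called in the fit of all libraries was called in the opposite direction in any of 15 other settings. Scaling by library size alone changed the balance, since 70.5% of the calls were then rises against 52.2%, and the median over all genes was then 0.12.

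For the strongest changes, the higher condition had to average 5 CPM or more and the libraries could not overlap. This rule was passed by 769 upregulated genes (5.66% of those tested) and 1042 downregulated genes (7.67%), or 1811 in all (13.3%). ENSGALG00000026853 (chr5:16916859-16927489, 3 exon segments) had 46.6 and 42.3 CPM in MEK1ca + HOXB8, 0.684 and 0.425 CPM in MEK1ca, and 1.87 and 0.960 CPM in pCIG. Both MEK1ca + HOXB8 libraries were thus far above the other 4, at a log2 fold change over MEK1ca of 6.34 ± 0.33 (SE, n = 2 and 2, adjusted p = 5.58e-06, edgeR). ENSGALG00000009778 (chr1:77010-89016, 15 exon segments) had 6.09 and 7.41 CPM in MEK1ca + HOXB8, 0.163 and 0.0531 CPM in MEK1ca, and 0.339 and 0.298 CPM in pCIG. Its log2 fold change was 6.0 ± 0.43 (SE, n = 2 and 2, adjusted p = 1.03e-05, edgeR), and the conditions again did not overlap.

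A further gene of chromosome 5, at chr5:16862037-16868089, lies close to the gene with the largest rise. It had 43.7 and 29.1 CPM in MEK1ca + HOXB8, 2.33 and 2.81 CPM in MEK1ca, and 2.43 and 1.23 CPM in pCIG, with a log2 fold change of 3.82. The single annotated gene between them, at chr5:16892092-16895043, had 0.510 and 0.926 CPM in MEK1ca + HOXB8, 0.0815 and 0.0531 CPM in MEK1ca, and 0.431 and 0.104 CPM in pCIG. It was also called up, with an adjusted p of 0.0096 (edgeR), so that 3 neighbours rose together here. Another of the 15 largest rises lay on the same chromosome, at chr5:16056782-16068381, with 7.40 and 9.14 CPM in MEK1ca + HOXB8 against 1.09 and 0.425 CPM in MEK1ca. The gene at chr7:22032622-22037892 had 21.7 and 22.9 CPM in MEK1ca + HOXB8, 0.896 and 0.717 CPM in MEK1ca, and 0.822 and 0.441 CPM in pCIG, with a log2 fold change of 4.79. The gene at chr18:4530723-4546873 had 18.5 and 21.0 CPM in MEK1ca + HOXB8, 1.01 and 1.17 CPM in MEK1ca, and 1.83 and 0.856 CPM in pCIG. In the genes at chr5:16862037-16868089, chr7 and chr18 the MEK1ca and pCIG libraries were at low levels, and the MEK1ca + HOXB8 libraries alone were high. In the gene between the 2 neighbours on chromosome 5, pCIG replicate 1 came close to MEK1ca + HOXB8 replicate 1. The 15 largest rises lay on 11 chromosomes, with log2 fold changes from 3.35 to 6.34, and had 3 to 47 exon segments. All 15 kept their direction in each of the alternative settings, but they were picked as the largest rises of the same counts.

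The strongest falls had the opposite layout, with the MEK1ca libraries high and the MEK1ca + HOXB8 and pCIG libraries low. ENSGALG00000014994 (chrZ:23225927-23234667, 7 exon segments) had 0.0849 and 0.0452 CPM in MEK1ca + HOXB8, 7.54 and 8.10 CPM in MEK1ca, and 0.0783 and 0.104 CPM in pCIG. Its log2 fold change over MEK1ca was -6.86 ± 0.39 (SE, n = 2 and 2, adjusted p = 2.94e-06, edgeR). This gene passed the filter on low counts only through the MEK1ca libraries and had to be lower in MEK1ca + HOXB8. Its values are thus a description. ENSGALG00000004221 (chr23:5614425-5622751, 8 exon segments) had 0.170 and 0.271 CPM in MEK1ca + HOXB8, 30.0 and 15.1 CPM in MEK1ca, and 0.366 and 0.285 CPM in pCIG. The MEK1ca replicates differed from each other here, yet both lay far above the other 4 libraries, at a log2 fold change of -6.67 ± 0.42 (SE, n = 2 and 2, adjusted p = 1.03e-05, edgeR).

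Among more abundant genes, that at chr1:133163682-133185156 had 5.00 and 4.78 CPM in MEK1ca + HOXB8, 256.0 and 197 CPM in MEK1ca, and 1.78 and 1.41 CPM in pCIG. Its log2 fold change was -5.53 ± 0.16 (SE, n = 2 and 2) and its adjusted p, 4.47e-08, was the smallest of the 15 largest falls (edgeR). The gene at chr2:90153586-90209672, with 22 exon segments, had 7.47 and 8.57 CPM in MEK1ca + HOXB8, 101 and 129 CPM in MEK1ca, and 3.43 and 3.32 CPM in pCIG. In both genes the MEK1ca + HOXB8 libraries lay between the MEK1ca and the pCIG libraries. The gene at chr2:1094833-1112902 had 2.22 and 3.33 CPM in MEK1ca + HOXB8, 139.7 and 65.2 CPM in MEK1ca, and 0.809 and 0.908 CPM in pCIG. Its replicates in MEK1ca were far apart, and its call was lost without either MEK1ca + HOXB8 library, with an adjusted p of up to 0.0445 (edgeR). Of the 15 largest falls, which lay on 9 chromosomes with log2 fold changes from -6.86 to -3.35, 10 were called in each of the alternative settings. The comparison of all 30 genes by library shows that each of them had non-overlapping MEK1ca + HOXB8 and MEK1ca libraries, which the rule required.

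**Figure D1:**
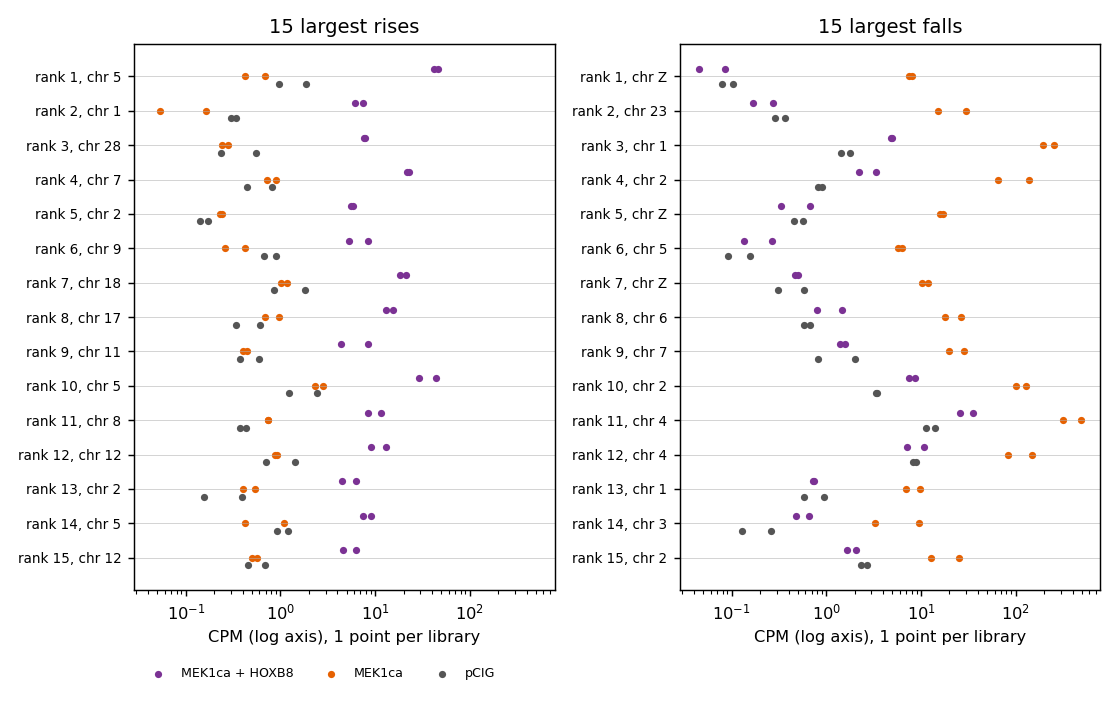
Expression in each library (CPM, log axis, 1 point per library) of the 15 genes with the largest rises (left) and the 15 with the largest falls (right) in MEK1ca + HOXB8 relative to MEK1ca, ordered by log2 fold change and labelled by chromosome. The first gene on the left had 46.6 and 42.3 CPM in MEK1ca + HOXB8 against 0.684 and 0.425 CPM in MEK1ca, and the first on the right 0.0849 and 0.0452 against 7.54 and 8.10 CPM. The first gene on the right passed the filter on low counts only through the MEK1ca libraries and had to be lower in MEK1ca + HOXB8.

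To describe the changes by abundance, genes were placed in classes by their mean CPM in pCIG, whose libraries are on neither side of the comparison. Among the 2657 genes with 100 CPM or more in pCIG, 464 (17.5%) were lower and 72 (2.71%) higher in MEK1ca + HOXB8, against 7.99% lower and 8.74% higher among all genes tested. These 464 genes were 42.8% of all downregulated genes. Their number was 304 without MEK1ca + HOXB8 replicate 1, 202 without MEK1ca replicate 1 and 290 without MEK1ca replicate 2. Most of the falls were small. The median log2 fold change of the 464 genes was -0.47, the lowest was -2.52, and 32 of them had -1 or less. The class of 100 to 1000 CPM had a median of 158 and 160 CPM in MEK1ca + HOXB8, 179 and 177 CPM in MEK1ca, and 173 and 176 CPM in pCIG. Genes of this class took 57.2% and 57.3% of all counts in MEK1ca + HOXB8, 58.5% and 58.6% in MEK1ca, and 59.1% and 59.2% in pCIG. Both MEK1ca + HOXB8 libraries were thus below all others by either measure. The CPM values depend on the TMM factors, which were 1.04 and 1.05 in MEK1ca + HOXB8 and 0.964 and 0.979 in MEK1ca. With library size alone the median log2 fold change of this class was -0.037, against -0.14 with TMM. The shares of counts do not depend on this scaling. In 1407 genes of the class (54.8%) both MEK1ca + HOXB8 libraries lay below both MEK1ca libraries, against 32.9% of all genes tested. The opposite order, with both MEK1ca + HOXB8 libraries above, was found in 422 genes of the class (16.4%), against 36.1% of all genes tested. Both orders were taken with TMM scaling and not with library size alone.

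The most abundant downregulated genes fell by a modest amount from a high level. The gene at chr9:14750404-14758732 had 2806 and 2665 CPM in MEK1ca + HOXB8, 3641 and 3716 CPM in MEK1ca, and 3272 and 3369 CPM in pCIG. Its log2 fold change was -0.43 ± 0.07 (SE, n = 2 and 2, adjusted p = 9.93e-04, edgeR). It overlaps 3 other annotated genes on the same strand, so that its counts are uncertain. The gene at chr10:7329784-7416677 had 593 and 692 CPM in MEK1ca + HOXB8, 1732 and 1449 CPM in MEK1ca, and 2042 and 1579 CPM in pCIG. With a log2 fold change of -1.31 it was the largest fall among the 10 most abundant, and its call was lost without either MEK1ca + HOXB8 library, at adjusted p-values of 0.028 and 0.014 (edgeR). The gene at chr25:483723-490804 had 435 and 575 CPM in MEK1ca + HOXB8, 1188 and 1240 CPM in MEK1ca, and 1117 and 1072 CPM in pCIG, with a log2 fold change of -1.27, and overlaps 1 other annotated gene on the opposite strand, whose reads cannot be told apart from its own, since the strand setting of the counts is not given. In both genes the MEK1ca and pCIG libraries were alike in level and the MEK1ca + HOXB8 libraries were below all 4. Over the 10 most abundant downregulated genes the log2 fold change ran from -1.31 to -0.30, and 5 of the 10 were called in each of the alternative settings.

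Genes that were nearly silent in control cells had the opposite balance. Of the 2495 tested genes under 1 CPM in pCIG, 343 (13.7%) were higher and 52 (2.08%) lower in MEK1ca + HOXB8 than in MEK1ca. Among all genes tested, 8.74% were higher and 7.99% lower. Of the 343, 91 passed the filter on low counts only through MEK1ca + HOXB8 and had to be higher there. The shares and medians given here for the class include 266 such genes. The 343 became 126 without MEK1ca + HOXB8 replicate 1, 119 without MEK1ca + HOXB8 replicate 2, 194 without MEK1ca replicate 1 and 216 without MEK1ca replicate 2. The median log2 fold change of the class was 0.81, and 73.5% of its genes were higher in MEK1ca + HOXB8, beside 51.6% of all genes. The median gene of the class had 0.446 and 0.497 CPM in MEK1ca + HOXB8, 0.244 and 0.265 CPM in MEK1ca, and 0.261 and 0.233 CPM in pCIG. Sums were taken over all genes under 1 CPM in pCIG, those not tested included. They were 2012 and 2202 CPM in MEK1ca + HOXB8, 1522 and 1430 CPM in MEK1ca, and 908 and 830 CPM in pCIG. These genes are close to silent, since they took 0.210% and 0.231% of the counts in MEK1ca + HOXB8 and 0.147% and 0.140% in MEK1ca. In the other classes the medians were 0.29 for the 2726 genes of 1 to 10 CPM, -0.038 for the 5704 genes of 10 to 100 CPM, -0.14 for the 2569 genes of 100 to 1000 CPM, and -0.029 for the 88 genes of 1000 CPM or more.

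**Figure D2:**
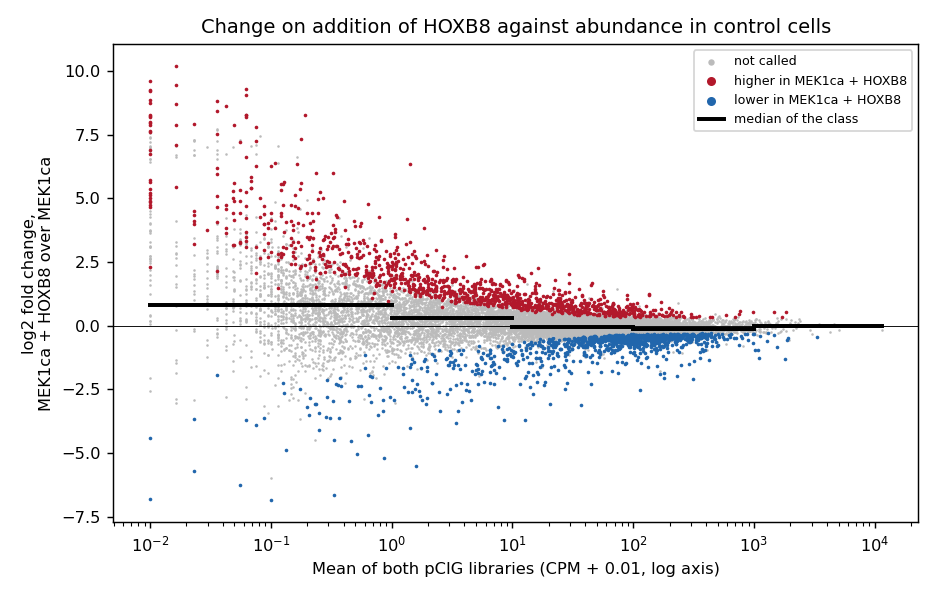
Log2 fold change of MEK1ca + HOXB8 over MEK1ca for each gene tested (vertical axis) against its mean in both pCIG libraries (CPM + 0.01, log axis), with called genes in colour and the median of each abundance class as a black line. The medians go down from 0.81 under 1 CPM to -0.14 between 100 and 1000 CPM, and that of 1000 CPM or more was -0.029. Some genes under 1 CPM passed the filter only through MEK1ca + HOXB8 and had to be higher there.

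The slope with abundance touched both counts. Offsets that follow the mean log ratio along abundance (loess) take such a slope out by construction, and with them 199 of the abundant genes were called down and 174 of the rare genes up. Scaling by library size alone gave 245 abundant genes down. The filter on low counts also shaped the rare class, because 266 of its genes passed only through the MEK1ca + HOXB8 libraries and had to be higher there. Without these 266 genes the class held 252 rises and 52 falls, with a median of 0.63. Among the 1448 rare genes with both pCIG libraries above the filter's cutoff of 0.128 CPM, 187 (12.9%) were up and 36 (2.49%) down, with a median of 0.56. Of the rare class, 73 genes had no count in either MEK1ca library, and with these genes set to the bound that 3 counts allow the class median was again 0.81. This says nothing on its stability, because all 73 lay above the median both as fitted and at the bound.

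The largest rises of the rare class were in genes at or near 0 in MEK1ca and pCIG. Of the 10 described, 9 passed the filter on low counts only through the MEK1ca + HOXB8 libraries and had to be higher there, so their values are a description. The gene at chr1:129458817-129466044 had 1.24 and 2.52 CPM in MEK1ca + HOXB8, no count in either MEK1ca library, and 0 and 0.0130 CPM in pCIG. Its level in MEK1ca + HOXB8 was 85.7 times a floor of 3 counts over both MEK1ca libraries, and by the exact 95% interval of the count ratio it was at least 68.6-fold higher than MEK1ca. The gene at chr9:15135292-15143951 had 1.22 and 1.23 CPM in MEK1ca + HOXB8 and no count in the 4 MEK1ca and pCIG libraries, and its level was 55.9 times the same floor, or at least 45.1-fold higher than MEK1ca by the exact interval. Both bounds treat each count as 1 read and cover counting error only. The gene at chr1:50770322-50773091 had 1.96 and 2.5 CPM in MEK1ca + HOXB8, which were 406 counts against 2 counts in MEK1ca. The ratio of these counts per effective library size was 152, with an exact 95% interval from 41.8 to 1258 that covers counting error only. The gene at chr18:8206967-8226132, with 36 exon segments, had 3.02 and 3.99 CPM in MEK1ca + HOXB8, 0.0326 and 0.0531 CPM in MEK1ca, and 0.0783 and 0.104 CPM in pCIG. Of the 10 largest rises of the rare class with at least 1 CPM in both MEK1ca + HOXB8 libraries, 3 had more than 20 exon segments.

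More genes were detected in the MEK1ca + HOXB8 libraries. The libraries were set beside each other at 38498791 counts, the total of MEK1ca replicate 2 with its counts halved. The other libraries were drawn down to this depth, and MEK1ca replicate 2 was only halved. At this equal depth, 14402 and 14482 genes had a count in MEK1ca + HOXB8, 13951 and 14060 in MEK1ca, and 13889 and 13870 in pCIG. Of 1096 genes on placed chromosomes without a count in the 4 MEK1ca and pCIG libraries, 164 had a count in both MEK1ca + HOXB8 libraries and 723 in neither. Of 801 genes without a count in the 4 MEK1ca + HOXB8 and pCIG libraries, 10 had a count in both MEK1ca libraries. The numbers 164 and 10 were taken at full depth, at which the MEK1ca + HOXB8 libraries held more counts than the MEK1ca libraries. Depth thus favours the former number, and its part was not tested. The part that the making of the libraries had in this wider detection was not tested.

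Chicken chromosomes run from a few large macrochromosomes to many small, gene-dense microchromosomes, and the calls differed between the ends of this order. On chromosomes 24 to 28, a grouping chosen after the values were seen, 134 of 988 genes (13.6%) were up and 39 (3.95%) down, with a median log2 fold change of 0.15. On chromosomes 1 to 5, 477 of 6053 genes (7.88%) were up and 546 (9.02%) down, with a median of -0.0043. The chromosomes between were near all genes tested, of which 8.74% were up and 7.99% down. Chromosomes 6 to 10 had 8.66% up and 8.40% down, with a median of -0.023. Chromosomes 11 to 23 had 9.40% up and 7.29% down, with a median of 0.034. Chromosome 26 had 35 rises and 11 falls among 223 genes, chromosome 28 had 36 rises and 12 falls among 245, and chromosome 7 had 29 rises and 52 falls among 474. The medians of these chromosomes were 0.19, 0.16 and -0.12. Scaling by library size alone raised all medians by a like amount, to 0.10 on chromosomes 1 to 5, 0.26 on chromosomes 24 to 28 and -0.016 on chromosome 7. Within each of the abundance classes under 1000 CPM the median was higher on chromosomes 24 to 28, while the share of rises in the class of 1 to 10 CPM was 13.3% there and 14.0% on chromosomes 1 to 5. Under 1 CPM in pCIG, the median was 1.30 on chromosomes 24 to 28 and 0.69 on chromosomes 1 to 5. This class includes genes that passed the filter only through MEK1ca + HOXB8 and had to be higher there, and the medians were not taken without them. At 100 to 1000 CPM, 9.84% of genes on chromosomes 24 to 28 were down, against 19.7% on chromosomes 1 to 5. Genes of chromosomes 24 to 28 were also short, with a median span of 6328 bases against 17852 bases on chromosomes 1 to 5, and the separate parts of chromosome and span were not tested.

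**Figure D3:**
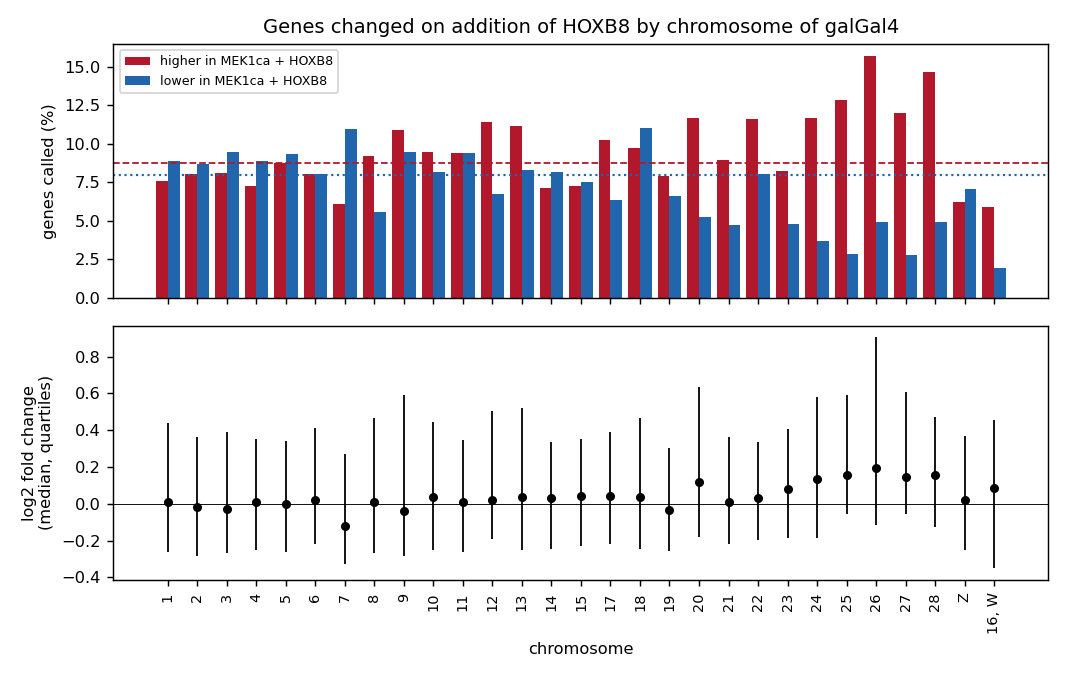
Share of tested genes called higher or lower in MEK1ca + HOXB8 (top, percent, with dashed and dotted lines at the shares over all genes, 8.74% and 7.99%) and median log2 fold change with quartiles (bottom) for each chromosome, chromosomes 16 and W pooled. Chromosomes 24 to 28 each had more rises than falls, as did others, such as chromosome 20 (40 rises and 18 falls). Chromosome 7 had more falls than rises, as did others, such as chromosome 18 (30 rises and 34 falls).

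On chromosome Z, 41 of 662 genes (6.19%) were up and 47 (7.10%) down, against 8.74% and 7.99% of all genes tested. Its median log2 fold change was 0.020, near the 0.017 of all genes. The 8 genes tested on chromosome W are too few to read a share from. On chromosome W, which only female chickens carry, 0 of 8 tested genes were called (edgeR, with 1 gene at an unadjusted p under 0.05 and 1 called by DESeq2). The summed expression of the W genes was 120 and 55.4 CPM in MEK1ca + HOXB8, 127 and 146 CPM in MEK1ca, and 86.6 and 109 CPM in pCIG, so that MEK1ca + HOXB8 replicate 2 was the lowest of the 6 libraries. Without MEK1ca + HOXB8 replicate 1, 4 of the 8 W genes were called. The sex of the pooled embryos is not given in the labels.

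Downregulated genes were long. Their median exonic length was 3084 bases and their median genomic span 23425 bases, against 2246 and 10962 bases for upregulated genes and 2171 and 13091 bases for all genes tested. Genes were split into 5 equal groups by exonic length. Of the shortest group (36 to 1125 bases) 3.16% were down, and of the longest (4026 to 92850 bases) 13.1%. The shares of upregulated genes in these groups were 6.70% and 8.87%. The median log2 fold change, which does not depend on the call, was 0.13 in the shortest group and -0.089 in the longest. Among genes of 100 to 1000 CPM in pCIG, the medians from the shortest to the longest group were 0.07, -0.05, -0.15, -0.15 and -0.21, and the shares called down were 5.70%, 10.9%, 15.5%, 20.8% and 22.3%. The first of these medians was -0.017 without MEK1ca + HOXB8 replicate 1. By exonic length, longer genes were called up more often in the lower classes. From the shortest to the longest group, the share up went from 6.28% to 21.2% at 1 to 10 CPM. Under 1 CPM it went from 7.69% to 20.9%, in a class that includes genes the filter forced to be higher. At 1 to 10 CPM the share down also went from 3.42% to 8.46%. At 100 to 1000 CPM the share up went from 6.14% to 1.80%. In 5 equal groups by genomic span, the share up under 1 CPM did not rise throughout. It was 10.9% in the shortest group, 18.0% in the third and 12.1% in the longest. At 1 to 10 CPM it went from 9.47% in the shortest group by span to 16.6% in the longest.

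In the rare class, taken over all lengths, genes with more exons had higher medians. An exon segment is a merged exon of the annotation. The rare class includes the 266 genes that passed the filter only through MEK1ca + HOXB8 and had to be higher there. Its values by exon number were not taken without these genes, so the filter may have shaped them. Under 1 CPM in pCIG, the 426 genes of 1 exon segment had a median log2 fold change of 0.034, and 4.46% of them were up. The 187 genes of more than 20 segments had a median of 1.31, and 26.2% of them were up. Those of 2, 3 to 5, 6 to 10 and 11 to 20 segments had medians of 0.83, 0.93, 0.95 and 1.08. Many of the genes of 1 segment are very short, and the 178 of them with an exonic length of at least 600 bases had a median of 0.68. Among rare genes of like exonic length the medians did not always rise with exon number. In the third of the 5 length groups they were 0.70, 1.36, 0.95, 1.24 and 1.09 from 2 segments to more than 20. In the fourth they rose from 0.39 to 1.06. The median of all genes of 1 segment fell below 0 under 2 settings, to -0.11 without MEK1ca + HOXB8 replicate 2 and to -0.69 with loess offsets. With loess offsets the median of the genes of more than 20 segments was 0.67. At 100 to 1000 CPM the genes of more than 20 segments had a median of -0.23, and 24.7% of the 584 were down. The share called down did not rise with each step in the number of segments in this class, with 25.0% of 20 genes of 1 segment, 26.8% of 41 genes of 2 segments and 7.67% of 352 genes of 3 to 5 segments.

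**Figure D4:**
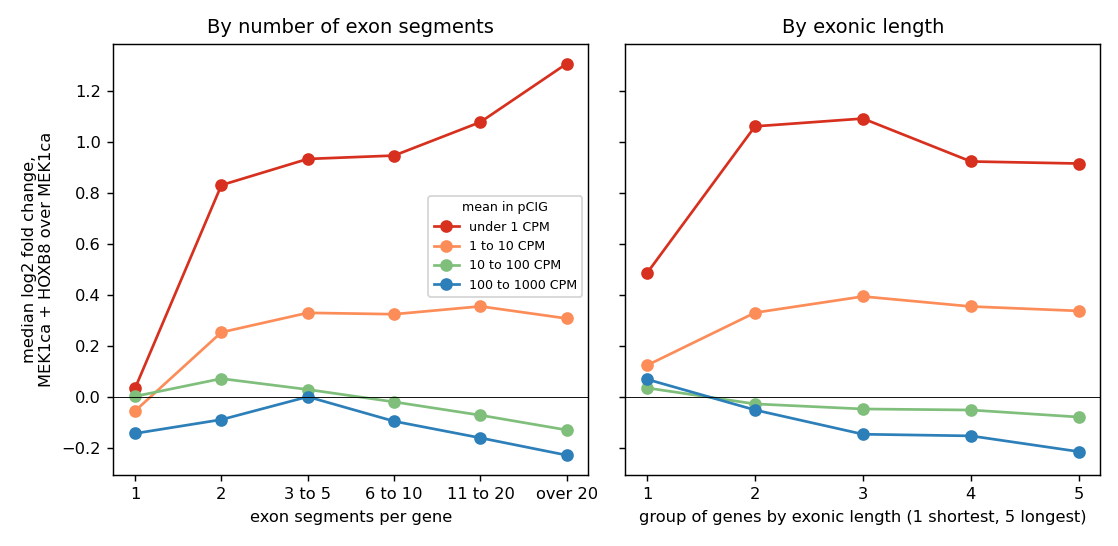
Median log2 fold change of MEK1ca + HOXB8 over MEK1ca by number of exon segments (left) and by exonic length in 5 equal groups (right), with 1 line for each class of abundance in pCIG. Under 1 CPM the median was 0.034 for 1 segment and 1.31 for more than 20, and at 100 to 1000 CPM it was 0.07 in the shortest and -0.21 in the longest group. The class under 1 CPM includes genes that passed the filter only through MEK1ca + HOXB8 and had to be higher there.

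Some of the changed genes were neighbours. Of 13552 pairs of neighbouring tested genes, 187 (1.38%) were both up, 169 (1.25%) both down and 127 (0.937%) changed in opposite directions. Over all genes tested, 8.74% were up and 7.99% down. Whether these pairs exceed what unrelated genes would give was not tested. The pairs that were both up include genes that passed the filter only through MEK1ca + HOXB8. Of the runs of neighbours called in 1 direction, 7 held 5 or more genes. The longest was on chromosome 4, where 7 genes in a row (chr4:11883098-12200806) were down, with log2 fold changes from -3.72 to -0.36. Its second gene, of 3 exon segments, had 35.5 and 26.0 CPM in MEK1ca + HOXB8, 495 and 314 CPM in MEK1ca, and 13.9 and 11.2 CPM in pCIG. The third gene, also of 3 segments, had 10.6 and 7.16 CPM in MEK1ca + HOXB8, 149 and 82.5 CPM in MEK1ca, and 8.94 and 8.17 CPM in pCIG. The calls of both genes were lost without either MEK1ca + HOXB8 library, at adjusted p-values of up to 0.026 (edgeR). The most abundant gene of this run, by contrast, was high in all libraries, with 332 and 379 CPM in MEK1ca + HOXB8 against 461 and 448 CPM in MEK1ca, so that size and level differed widely within the run.

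On chromosome Z, 5 genes in a row (chrZ:23225927-23436518) were down, the first of them ENSGALG00000014994. This first gene passed the filter only through the MEK1ca libraries and had to be lower in MEK1ca + HOXB8. The second gene had 18.4 and 13.6 CPM in MEK1ca + HOXB8, 142 and 126 CPM in MEK1ca, and 21.5 and 19.7 CPM in pCIG, with a log2 fold change of -3.06. The last gene, which lies inside the one before it on the opposite strand, had 0.499 and 0.463 CPM in MEK1ca + HOXB8, 11.8 and 10.2 CPM in MEK1ca, and 0.587 and 0.311 CPM in pCIG. In these 3 genes the MEK1ca + HOXB8 libraries were near the pCIG libraries and far below MEK1ca. The 2 other downward runs were on chromosome 11 (chr11:6864118-7210231) and chromosome 17 (chr17:8490013-8691350), with 5 genes each and log2 fold changes no lower than -1.01.

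On chromosome 9, 5 neighbours (chr9:15117606-15170586), all under 0.4 CPM in pCIG, were up. The genes of this run from chr9:15117606 to 15154039 were below the filter's cutoff of 0.128 CPM in all MEK1ca and pCIG libraries. They passed the filter only through MEK1ca + HOXB8 and had to be higher there, so their values are a description. The first had 2.29 and 3.23 CPM in MEK1ca + HOXB8, 0 and 0.0796 CPM in MEK1ca, and 0 and 0.0519 CPM in pCIG. The third had 2.38 and 3.15 CPM in MEK1ca + HOXB8, 0 and 0.106 CPM in MEK1ca, and 0.117 and 0.117 CPM in pCIG. The last 2 genes of the run, at 1.04 to 2.73 CPM in MEK1ca + HOXB8, were above all 4 other libraries, and the second is the gene described above that had no count outside MEK1ca + HOXB8.

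The 2 other upward runs were on microchromosomes. On chromosome 26, 5 genes (chr26:1543127-1587475) were up, with log2 fold changes from 0.45 to 5.23. The last of them, at 5.23, passed the filter only through MEK1ca + HOXB8 and had to be higher there. The third gene had 6.56 and 7.96 CPM in MEK1ca + HOXB8, 1.66 and 1.59 CPM in MEK1ca, and 0.0392 and 0.0130 CPM in pCIG, so that the conditions were set apart in 3 steps. On chromosome 28, 5 genes (chr28:782331-808851) were up, with log2 fold changes from 0.39 to 4.90. Its second gene is among the 15 largest rises, with 7.75 and 7.73 CPM in MEK1ca + HOXB8, 0.277 and 0.239 CPM in MEK1ca, and 0.548 and 0.233 CPM in pCIG. The genes of a run can share reads where they overlap, which was the case for 2 genes of the run on chromosome 17 and for 2 of that on chromosome Z.

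**Figure D5:**
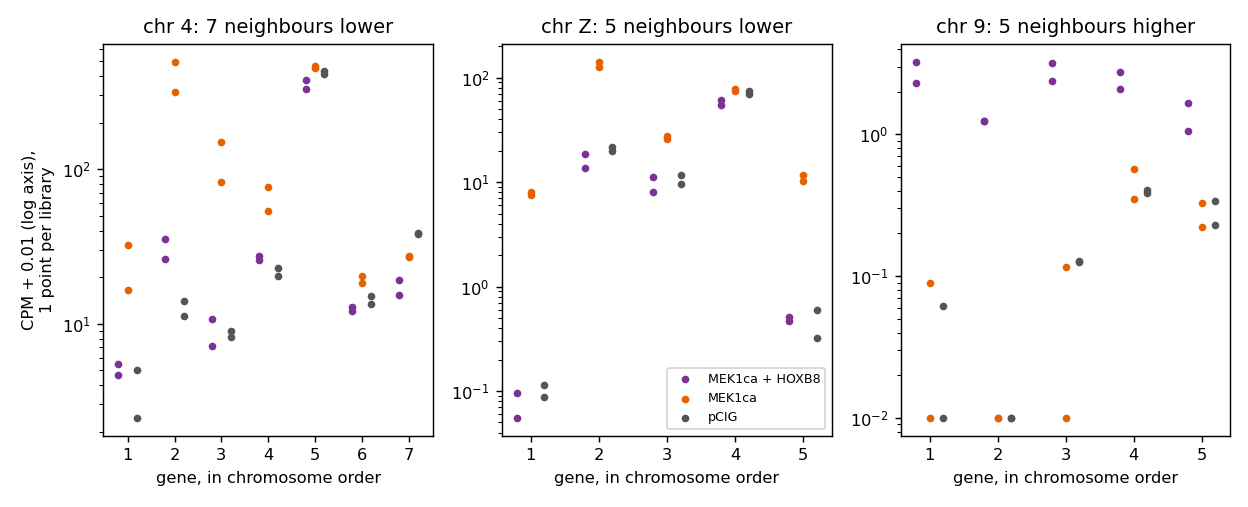
Expression in each library (CPM + 0.01, log axis, 1 point per library) of the genes in the downward runs on chromosomes 4 and Z and the upward run on chromosome 9, in their order along the chromosome. The genes on chromosome 9 from chr9:15117606 to 15154039 passed the filter only through MEK1ca + HOXB8 and had to be higher there. On chromosome Z, ENSGALG00000014994 passed it only through MEK1ca and had to be lower in MEK1ca + HOXB8. The second gene on chromosome 4 had 35.5 and 26.0 CPM in MEK1ca + HOXB8 against 495 and 314 CPM in MEK1ca, and the second gene on chromosome 9 had counts in MEK1ca + HOXB8 only.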

How the data were processed

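Per the labels and the paper's methods, the authors amplified cDNA from RNA of sorted cells linearly and sequenced poly-A RNA as paired ends. Subread and featureCounts are named in the submitters' notes, with galGal4 as the build, and their versions, the strand setting and the handling of reads with several alignments are not given in the sources used here. The authors deposited raw counts per gene with exon coordinates and lengths. Their deposited comparison tables hold fold changes and p-values and were not used.

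Counts were analysed in R 4.3.3 with edgeR 4.0.16 and DESeq2 1.42.0, and in Python 3.11.15. Genes were filtered (filterByExpr), scaled by TMM and fitted over all 6 libraries with 1 mean per condition (quasi-likelihood, robust), and the fit was tested on simulated data. The SE is |log2 fold change| divided by √F. The common biological coefficient of variation was 0.126. With 2 pools per condition, p-values set each difference against the spread between replicate pools. That spread was estimated over all conditions, pCIG included, and moderated across genes. The genes described were the 15 largest changes each way with at least 5 CPM and no overlap, the 10 most abundant falls and the 10 largest rises under 1 CPM in pCIG, further the genes of runs of 5 or more neighbours, which were picked after their values were seen. At most 2 identifiers are printed each way. Members and lists were chosen with earlier results of these data known. Lists of genes by symbol, markers and motifs could not be used. The 1229 genes on the mitochondrion, linkage groups and unplaced scaffolds had no count in any library. Alternatives covered scaling, filter, test, threshold, abundance class, replicate block, loess offsets, halved counts and each library left out. Those without a pCIG library, and the class medians in all settings, were added after seeing the data.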

Additional observations from a re-analysis of the deposited data

How the results depend on the processing

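Of the 4 counts of calls, that of genes up was 535 to 1089 and that of genes down 564 to 948 when 1 library was left out. The count of abundant genes down was 202 to 474 and that of rare genes up 119 to 354. With the threshold of the adjusted p at 0.05 (edgeR) there were 2307 up, 2061 down, 826 abundant down and 656 rare up. Scaling by library size alone gave 646 genes down and 245 abundant genes down, DESeq2 gave 1716 down, and loess offsets gave 199 abundant genes down and 174 rare genes up. The cause of these differences was not tested, except that loess offsets take out the slope with abundance and a wider threshold admits more genes. All other settings kept these counts within 1.5 times. Among them, the fit of only the 4 libraries compared gave 1121 genes up, 899 down, 349 abundant genes down and 389 rare genes up.

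With the replicate number as a block, 1159 genes were up and 1011 down. Same-numbered libraries of MEK1ca + HOXB8 and MEK1ca deviated from their means with a correlation of -0.027, and with 2 pairs the numbers were not taken to pair the libraries.

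Medians of log2 fold change changed sign in 7 cases: with loess offsets to -0.019 (1 to 10 CPM), -0.69 (under 1 CPM, 1 exon segment) and -0.0083 (all genes), with library size alone to 0.068 (10 to 100 CPM) and 0.10 (chromosomes 1 to 5), without MEK1ca + HOXB8 replicate 2 to -0.11 (under 1 CPM, 1 exon segment), and without MEK1ca + HOXB8 replicate 1 to -0.017 (100 to 1000 CPM, shortest group, which ranged up to 0.15 with 1 library left out). Loess offsets also took the median under 1 CPM to 0.16 and that of 100 to 1000 CPM to -0.01. The 50 genes chosen by rule kept their direction in every setting. They were picked by their calls in these same counts, so the kept direction says nothing on their stability. Some of their calls were lost, chiefly without a MEK1ca + HOXB8 library. With 3 or fewer counts in MEK1ca, depth limits the size of a rise.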
